A study of Mus musculus with 8 samples.

Results

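Olfactory receptor genes outside the large clusters of chromosomes 2 and 7 were followed through a set of 5-hydroxymethylcytosine profiles taken while mouse fibroblasts were converted into neurons. The members were all genes whose symbol is Olfr followed by a digit and whose listed promoter region or peak lay on any chromosome but 2 and 7. The deposited lists held 558 such gene symbols among 21604 gene symbols in all: 450 had a promoter region in at least 1 list and 484 had an assigned peak. They carried 2214 of 73538 listed promoter regions and 1446 of 181581 listed peaks, on 15 chromosomes. RefSeq annotates 595 genes of this kind with a transcript, of which 550 were found in the lists and 45 were in none, and these 595 are the denominator of the shares of genes given here. Of the 558 symbols, 12 carry -ps, the mark of a pseudogene.

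All cells came from ICR mice. The groups were induced neurons made from mouse embryonic fibroblasts (MEFs) and taken at 1, 3, 5 and 7 dpi, primary hippocampal neurons from pups 1 day old, and MEFs from E13.5 embryos. The labels do not spell out dpi and do not name the factors used for induction, and they give every group a passage range of 3 to 5. The submitters called the primary neurons their positive and the MEFs their negative control. The mark was captured with an antibody and sequenced (hMeDIP-seq), in 1 library per group, and 2 input samples had no file of their own here. With 1 library per group no difference has a replicate check, so none carries a p-value, and every interval below covers counting error only. The lists hold no expression values, so the labelled cell types could not be checked against marker genes.

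Olfactory receptors are G protein-coupled receptors that detect odorants in the nose. Each olfactory sensory neuron expresses a single receptor gene from a single allele, and the many receptor genes that it does not use are packed into heterochromatin. The genes are short, with the coding sequence usually in a single exon, and stand in tandem clusters on many chromosomes. 5-Hydroxymethylcytosine is made from 5-methylcytosine by the TET enzymes and is abundant in neurons and low in many cultured cells. Fibroblasts and hippocampal neurons are not olfactory sensory neurons. Neighbouring receptor genes share long stretches of similar sequence, and how reads that map to several of them were treated is not known here, so the assignment of a read to a single member is uncertain.

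The promoters of these genes hold few CpG sites, the main substrate of the mark. RefSeq windows were matched to 492 member genes through their gene IDs (494 windows), and the 250 bases before each start site were read on the GRCm38.p6 assembly, which is mm10. The start sites of the lists lay within 1 bp of a RefSeq start for 353 of 366 member genes with both. The member windows held 1.07 CpG on average and 43.1% of them held none, whereas all 32851 promoter windows held 9.86 on average and 7.87% held none. Median GC content was 35.2% in member windows and 52.4% in all windows. On either strand, the letters TAATTA, a homeodomain core, were found in 17.0% of member windows and 4.84% of all windows, and TATAAA, a core promoter box, in 35.0% of member windows and 12.4% of all windows. CCCNNGGG, the core of the Ebf site, was found in 2.63% of member windows and 11.8% of all windows, and CAGCTG, an E-box, in 7.09% of member windows and 13.0% of all windows. These 4 motifs do not contain one another, and a match or its absence describes the letters of the window alone.

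A listed promoter region overlapped 59 of the 494 member windows: 14 were overlapped only by regions with more reads than MEFs, 44 only by regions with fewer reads and 1 by both kinds. The matching counts over all promoter windows are not given here, so these numbers show nothing particular to the members. In 6 windows a region spanned the window in full. The sequences below start with the window spanned in full by a region with more reads than MEFs (Olfr313). Next are the 4 windows spanned in full by a region with fewer reads and met by such a region in all 5 comparisons (Olfr1380, Olfr1447, Olfr943 and Olfr984). The last is that of Olfr1388, the only gene whose region with one of the largest folds described below lay on its own matched window. No window of Olfr809 was among the 59, although its region named at 7 dpi was centred 140 bp before the listed start site. The first 5 sequences were chosen after their values were seen. Each is written 5′ to 3′ on the strand of the gene, with every CpG in capitals. They lie at chr11:58816678-58816927 (Olfr313, plus strand), chr11:49563673-49563922 (Olfr1380, plus), chr19:12901779-12902028 (Olfr1447, minus), chr9:39166060-39166309 (Olfr943, plus), chr9:40101489-40101738 (Olfr984, minus) and chr11:49443603-49443852 (Olfr1388, plus).
Olfr313: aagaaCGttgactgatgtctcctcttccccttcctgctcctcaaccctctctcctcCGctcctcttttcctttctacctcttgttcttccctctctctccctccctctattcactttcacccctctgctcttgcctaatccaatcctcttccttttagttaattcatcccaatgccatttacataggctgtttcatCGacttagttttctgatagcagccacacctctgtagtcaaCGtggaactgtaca
Olfr1380: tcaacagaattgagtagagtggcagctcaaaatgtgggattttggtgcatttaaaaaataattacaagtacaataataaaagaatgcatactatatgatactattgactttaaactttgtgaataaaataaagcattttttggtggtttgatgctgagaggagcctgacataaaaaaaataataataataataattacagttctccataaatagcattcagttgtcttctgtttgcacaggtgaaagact
Olfr1447: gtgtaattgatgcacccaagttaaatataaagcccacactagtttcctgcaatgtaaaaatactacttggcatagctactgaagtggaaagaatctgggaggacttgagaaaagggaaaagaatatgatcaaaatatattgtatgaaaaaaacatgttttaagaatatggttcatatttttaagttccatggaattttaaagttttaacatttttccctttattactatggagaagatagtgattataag
Olfr943: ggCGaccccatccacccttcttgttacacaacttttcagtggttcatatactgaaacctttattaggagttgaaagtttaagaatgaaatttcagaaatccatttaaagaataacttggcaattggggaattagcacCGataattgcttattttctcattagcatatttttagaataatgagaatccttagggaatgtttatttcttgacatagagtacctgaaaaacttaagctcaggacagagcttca
Olfr984: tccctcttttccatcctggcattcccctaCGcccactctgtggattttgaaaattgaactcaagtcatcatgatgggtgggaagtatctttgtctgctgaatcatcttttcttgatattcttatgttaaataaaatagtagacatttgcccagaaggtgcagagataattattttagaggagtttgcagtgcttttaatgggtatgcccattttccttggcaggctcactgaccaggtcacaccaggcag
Olfr1388: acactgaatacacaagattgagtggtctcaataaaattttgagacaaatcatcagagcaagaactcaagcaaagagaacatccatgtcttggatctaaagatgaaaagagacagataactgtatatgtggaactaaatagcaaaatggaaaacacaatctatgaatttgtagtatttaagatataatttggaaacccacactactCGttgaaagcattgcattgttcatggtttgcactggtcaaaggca

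The Olfr313 window has 4 CpG, Olfr943 has 2, Olfr984 and Olfr1388 have 1 each, and Olfr1380 and Olfr1447 have 0. Captured fragments can be longer than these windows, so the modified base need not lie in the letters shown. At the Olfr313 promoter there were 16 reads at 5 dpi, against 0 in MEFs, and 11 reads in primary neurons, against 0 in MEFs. These were at least 9.33-fold and at least 6.60-fold higher than in MEFs, with the MEF count held at the floor of 3 reads. The opposite was listed at the other 5 promoters. The region of Olfr943 had 0 reads at each of the 4 times and in primary neurons, against 37 in MEFs in the 1 dpi, 7 dpi and primary neuron comparisons and 18 in MEFs in those of 3 and 5 dpi, where other stretches were listed. Olfr1447 had 0 reads in each of the 5 libraries, against 19 in MEFs in each comparison, and Olfr1380 had 0 reads in each, against 18 in MEFs. Olfr984 had 1, 0, 2 and 2 reads at 1, 3, 5 and 7 dpi, with 3 reads in primary neurons, against 29 in MEFs each time. The region on the Olfr1388 window had 1, 1, 0 and 0 reads at 1, 3, 5 and 7 dpi, with 0 in primary neurons, against 26 in MEFs each time.

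A hyper list holds regions within 2000 bp of a transcription start site (TSS) with more reads than MEFs, and a hypo list holds regions with fewer. The deposited signal was whole reads times a constant for each library, and dividing it by that constant gave the reads used here. The authors scaled the libraries, so that each read of the 1 dpi library weighed as much as 1.78 MEF reads. This weight was 1.75 for the later times and 1.80 for primary neurons, and folds use it. Total depth was not analysed here. The regions are thinly covered. Member regions of the hyper lists had a median of 10 to 11 reads in the library named and at least 9, with no MEF read in 96.8% to 97.7% of them. Member regions of the hypo lists had a median of 22 to 23 MEF reads and at least 15, with no read in the other library in 57.8% to 67.3% of them. The floor of 3 reads for a count of 0 lets regions with a single read in the lower library reach the largest folds. A fold at this floor is not the lower limit of the ratio.

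Regions of both kinds could lie side by side. Among members, 163 pairs of a hyper and a hypo region of the same gene overlapped, in 48 genes, with a median overlap of 120 bp. All 163 hyper regions had 0 MEF reads, and the hypo regions that they overlapped had at least 15. The regions share only part of their length, and no read number is listed for the shared part alone. The stretch over which the listed reads were counted is not given, and it need not be the whole region. At Olfr288, MEFs had 0 reads for the 5 dpi hyper region chr15:98194681-98194880. For the 7 dpi hypo region chr15:98194701-98194920, which covers most of the same bases, MEFs had 17. Of the pairs, 23 came from the same comparison. No count of such pairs over all genes is given here. In the hypo lists, 37.6% to 41.3% of member regions lay on a MEF peak, and in 54.8% to 56.6% of those the MEF reads equalled the tags at the peak's summit. Over all genes 46.3% to 49.7% of hypo regions lay on a MEF peak, with equality in 63.6% to 64.1%.

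Regions with fewer reads than MEFs were listed for close to the same number of members in every comparison. At 1 dpi, 285 of 595 members had one, 47.9% (exact 95% interval 43.8 to 52.0), against 36.8% of all 26220 annotated genes. At 3 dpi it was 283 members, 47.6% (43.5 to 51.7), against 34.3% of all genes. At 5 dpi it was 270 members, 45.4% (41.3 to 49.5), against 34.1%. At 7 dpi there were 282 members, 47.4% (43.3 to 51.5), against 34.3%, and in primary neurons 292 members, 49.1% (45.0 to 53.2), against 34.8%. In each comparison the interval of the members lay above the share of all genes. The interval takes genes as independent, which neighbours in a cluster are not, and all 5 comparisons use the same MEF library. The receptors of chromosome 2 had between 51.4% and 54.8% of 292 genes listed and those of chromosome 7 between 41.8% and 45.2% of 239, with the members between them in all 5 comparisons. The difference between these groups of genes was not tested.

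Regions with more reads than MEFs were fewer and varied more by library. They were listed for 110 of 595 members at 1 dpi, 18.5% (15.4 to 21.8), against 11.7% of all genes. At 3 dpi the count was 63, 10.6% (8.23 to 13.3), against 10.9% of all genes, and at 5 dpi it was 105, 17.6% (14.7 to 21.0), against 16.9%. At 7 dpi it was 39, 6.55% (4.70 to 8.85), against 7.44%, and in primary neurons 35, 5.88% (4.13 to 8.09), against 7.43%. At 1 dpi the interval lay above the share of all genes, and in the other 4 comparisons it included it, so only the 1 dpi count stood off its background. The receptors of both other chromosomes were also above all genes at 1 dpi, with 16.1% (12.1 to 20.8) on chromosome 2 and 18.4% (13.7 to 23.9) on chromosome 7. On chromosome 2 the later shares were 8.22%, 9.93% (6.75 to 14.0) and 2.74% (1.19 to 5.33) at 3, 5 and 7 dpi, with 5.82% in primary neurons. On chromosome 7 they were 11.3%, 16.7% and 8.37% at 3, 5 and 7 dpi, with 6.69% in primary neurons. The differences from the members were not tested.

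**Figure D1:**
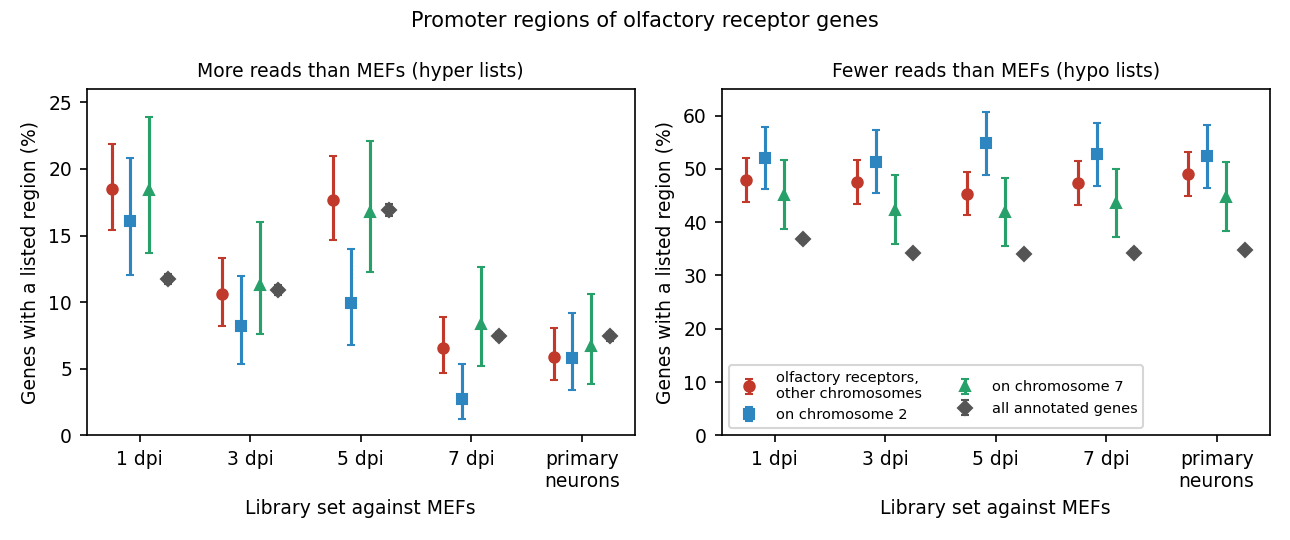
Percentage of annotated genes with a listed promoter region (y axis) in each library set against MEFs (x axis), in the hyper lists (left, 0 to 26%) and the hypo lists (right, 0 to 65%), for olfactory receptors on chromosomes other than 2 and 7, on chromosome 2 and on chromosome 7, and for all annotated genes. Bars are exact 95% intervals for counting error; the members lie between 45.4% and 49.1% in the hypo lists and between 5.88% and 18.5% in the hyper lists.

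Counted as regions and not genes, the members had 126, 63, 117 and 43 hyper regions at 1, 3, 5 and 7 dpi, with 38 in primary neurons. Their hypo regions numbered 367, 358, 351 and 367 at 1, 3, 5 and 7 dpi, with 384 in primary neurons. Hyper regions were thus 25.6% of the member regions at 1 dpi (21.8 to 29.6), against 21.7% of all listed regions. They were 14.96% at 3 dpi (11.7 to 18.7), against 22.5%, 25.0% at 5 dpi (21.1 to 29.2), against 31.7%, 10.5% at 7 dpi (7.69 to 13.9), against 16.4%, and 9.005% in primary neurons (6.45 to 12.2), against 15.7%. The member share lay above that of all regions at 1 dpi and below it in the other 4 comparisons. These shares rest on regions near the lowest read number: with at least 15 reads required, the member share was 1.08%, 1.65%, 3.84% and 2.13% at 1, 3, 5 and 7 dpi, with 0% in primary neurons. Hypo regions all have at least 15 reads and hyper regions at least 9, so this minimum can remove hyper regions only. The share over all listed regions at this minimum is not given here, so the drop shows nothing particular to the members. A member could stand in both lists of a comparison: 49 did at 1 dpi, 29 at 3 dpi, 50 at 5 dpi, 26 at 7 dpi and 15 in primary neurons, of 558 symbols. Other genes did so too: over all 21604 gene symbols it was 1456, 1224, 1831 and 861 at 1, 3, 5 and 7 dpi, with 885 in primary neurons.

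The members with the largest folds above MEFs came from many chromosomes and differed between libraries. At 1 dpi Olfr187 (chr16:59040101-59040360, centred 481 bp before the TSS) and Olfr948 (chr9:39320461-39320720, 978 bp before) each had 14 reads, against 1 in MEFs, a ratio of 24.9 with a 95% interval of 3.79 to 1052. Olfr872 had 20 reads at 1 dpi and MEFs had 0, which is 11.9-fold higher at the floor (lower 95% limit 8.78). At 3 dpi Olfr1423 (chr19:12038321-12038960, 1900 bp before the TSS) had 38 reads and MEFs had 0, 22.2-fold higher at the floor (lower 95% limit 17.2). Its 38 reads were the highest read number among member hyper regions. Olfr1337 had 15 reads at 3 dpi, against 1 in MEFs, and Olfr866 had 11 reads, against 1 in MEFs, ratios of 26.3 (4.04 to 1105) and 19.3 (2.80 to 829). At 5 dpi the 3 named regions each had 1 MEF read. Olfr98 (chr17:37261721-37262180, 1712 bp past the TSS) had 23 reads, against 1 in MEFs, a ratio of 40.3 (6.54 to 1658), while Olfr381 had 14 and Olfr821 had 12. The upper limits of these ratios are wide because they rest on a single MEF read. Olfr187 at 1 dpi and Olfr866 at 3 dpi also had hypo regions elsewhere in the same comparison, with 0 reads, against 23 in MEFs, for Olfr187 and 0 to 3 reads, against 15 to 36, for Olfr866.

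At 7 dpi Olfr372 (chr8:72056861-72057320) had 24 reads and Olfr809 had 19, against 0 in MEFs at both, which is at least 14.0-fold higher for Olfr372 and at least 11.1-fold for Olfr809. Olfr94 had 15 reads at 7 dpi, against 2 in MEFs, a ratio of 13.1 (3.05 to 118). In primary neurons the named regions were Olfr10 (chr11:49317721-49318060) with 13 reads, against 2 in MEFs, Olfr248 with 14, against 0, and Olfr146 with 13, against 0. The ratio of Olfr10 was 11.7 (2.65 to 107), and the others were at least 8.40-fold and at least 7.80-fold higher. Olfr372 at 7 dpi and Olfr10 in primary neurons also had a hypo region elsewhere in the same comparison, with 0 reads at both, against 16 MEF reads for Olfr372 and 19 for Olfr10. No member region in primary neurons had more than 14 reads in a hyper list, against a highest value of 20 at 1 dpi, 38 at 3 dpi, 28 at 5 dpi and 24 at 7 dpi.

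No member was in the hyper list in all 5 comparisons, against 0.313% of all genes (82 of 26220). A hyper region was listed in 1 comparison for 175 members, in 2 for 61, in 3 for 16 and in 4 for 3, and the matching counts over all genes are not given here. The 3 members listed in 4 comparisons are Olfr288, Olfr902 and Olfr1366, named here because they are so few. Olfr902, on chromosome 9, had 9 hyper regions at 1, 3, 5 and 7 dpi, with 9 to 13 reads against 0 in MEFs, spread from 1631 bp before to 499 bp past the TSS. In primary neurons it had a hypo region instead, with 0 reads against 15 in MEFs. Olfr288, on chromosome 15, had 11 reads at 1 dpi, 14 at 3 dpi, 10 in each of 2 regions at 5 dpi and 13 at 7 dpi, against 0 in MEFs each time. It also had hypo regions, with 0 reads against 17 in MEFs at 3 dpi, 0 against 17 at 7 dpi and 0 against 20 in primary neurons. Olfr1366, on chromosome 13, had 9 or 10 reads against 0 in MEFs at 1, 3 and 5 dpi, and 9 against 0 in primary neurons. Its hypo regions, at 7 dpi and in primary neurons, had 0 reads, against 21 in MEFs. The lowest read number that a hyper list holds is 9, so these counts lie near it.

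By contrast, 206 members were in the hypo list in all 5 comparisons, 204 of the 595 annotated ones (34.3%, against 24.7% of all genes). On chromosome 2 it was 115 of 292 (39.4%) and on chromosome 7 it was 77 of 239 (32.2%). A hypo region was listed in 4 comparisons for 55 further members, in 3 for 39, in 2 for 24 and in 1 for 15, without matching counts over all genes here. These counts share the MEF library: a stretch with many MEF reads enters each comparison with the same reads. For 195 members a region overlapped in all 5 lists.

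Olfr461, on chromosome 6, had the most MEF reads among member hypo regions. In its region (chr6:40542941-40543540, centred 1737 bp past the TSS) reads numbered 1, 1, 4 and 4 at 1, 3, 5 and 7 dpi, with 1 in primary neurons, against 95 in MEFs. The ratio of MEFs over the other library was 53.4 at 1 dpi (9.36 to 2133), 54.3 at 3 dpi (9.51 to 2166), 13.6 at 5 dpi (5.13 to 50.8), 13.6 at 7 dpi (5.13 to 50.8) and 52.8 in primary neurons (9.25 to 2106). The 5 and 7 dpi libraries were thus the higher of the 5, by 3 reads, and their intervals overlap the others. Olfr1500 (chr19:13829121-13829500) had 1, 2, 2 and 1 reads at 1, 3, 5 and 7 dpi, with 2 in primary neurons, against 41 in MEFs, with ratios between 11.4 and 23.4. The other 4 members chosen for the largest smallest fold were Olfr1355 on chromosome 10, Olfr186 on chromosome 16, Olfr1388 on chromosome 11 and Olfr1509 on chromosome 14. In the region with the largest fold in each comparison, each had 1 read in each of the 5 libraries. That region was not always the same stretch: Olfr1388 had 1 read at 1 and 3 dpi on its promoter, whereas its regions at 5 dpi, 7 dpi and in primary neurons were of another stretch upstream, because a fold over 0 reads was held at the floor of 3. For Olfr1355 the stretch at 7 dpi lay past the TSS and the others before it. MEFs had 28 to 31 reads at Olfr1355, 24 at Olfr186, 23 to 26 at Olfr1388 and 23 at Olfr1509.

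**Figure D2:**
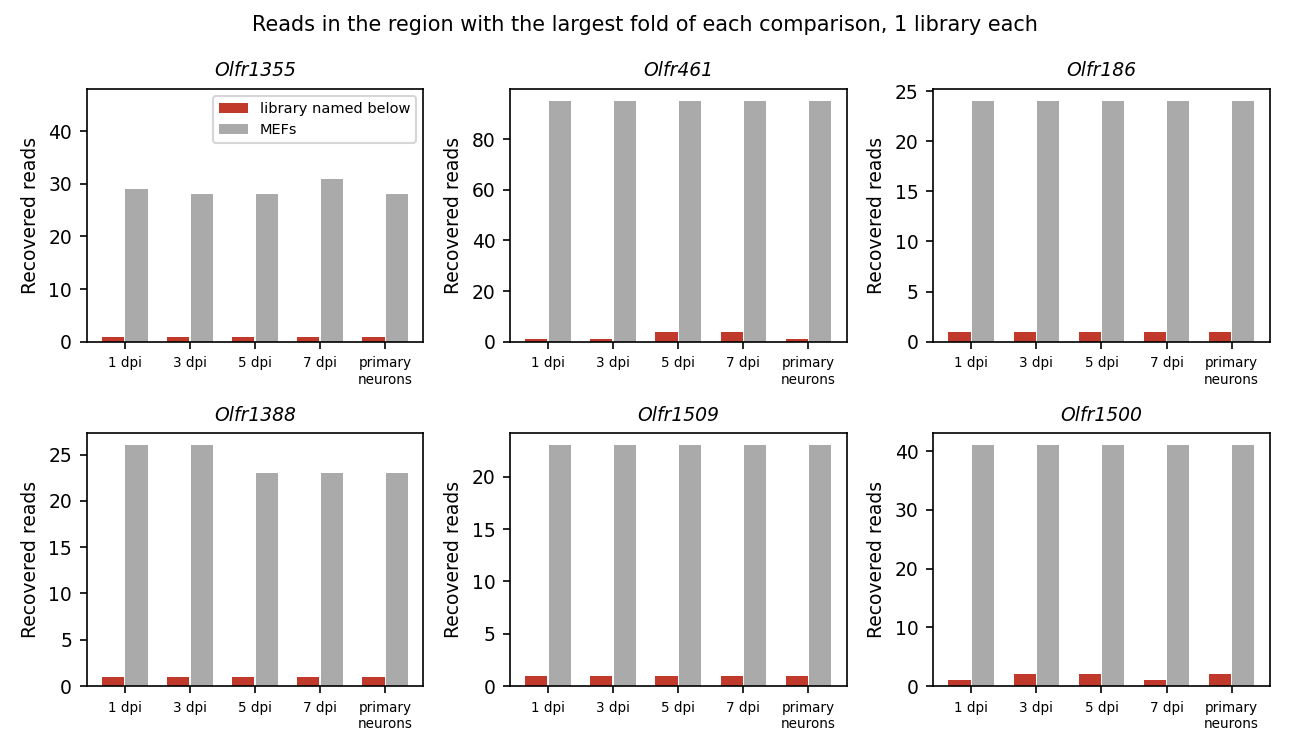
Recovered reads (y axis, linear from 0) in the named library (red) and in MEFs (grey) for the region with the largest fold in each of the 5 comparisons (x axis), 1 panel per gene, for the 6 members with the largest smallest fold among those in all 5 hypo lists; the bars are single libraries and carry no error bar. The red bars stand at 1 to 4 reads and the grey bars between 23 and 95.

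Other members were named for large folds below MEFs in 1 or 2 comparisons. At 1 dpi Olfr430 on chromosome 1 had 1 read, against 70 in MEFs, a ratio of 39.4 (6.84 to 1577), and Olfr1411 had 1, against 47. At 3 dpi and again at 5 dpi Olfr1474 had 1 read, against 53 in MEFs. Olfr18 had 1 at 3 dpi, against 47. At 5 dpi Olfr812 had 1, against 59, and Olfr1472 had 1, against 54. At 7 dpi Olfr117 had 1, against 56, Olfr803 had 1, against 52, and Olfr447 had 1, against 51. In primary neurons Olfr27 had 1, against 57, and Olfr911-ps1, as the lists spell it, had 1, against 53. Their ratios of MEFs over the other library lay between 26.4 and 33.7 apart from that of Olfr430. None of the 15 regions named for the hypo lists had more than 1 read in the library set against MEFs.

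The 595 annotated members fall into 40 groups when they are split at gaps over 1 Mb, of which 15 hold at least 10 genes and 515 genes together over 18.8 Mb. By chromosome, the hypo share was highest on chromosome 19 among chromosomes with at least 25 members at 1, 5 and 7 dpi and in primary neurons, where 39, 37, 39 and 39 of its 62 members were listed. At 3 dpi it was 35 of 62 (56.5%), below chromosome 10 with 40 of 68 (58.8%) and chromosome 17 with 29 of 51 (56.9%). The 62 genes of chromosome 19 form 1 group between 11.8 and 13.9 Mb. Chromosome 9, with 136 members the largest, had 53, 50, 55 and 55 members listed at 1, 3, 5 and 7 dpi, with 62 in primary neurons, 36.8% to 45.6%. Its interval included the share of all genes at 1 dpi (36.8%), 3 dpi (28.7 to 45.5%, against 34.3%), 5 dpi (32.1 to 49.2%, against 34.1%) and 7 dpi (34.3%). In primary neurons it lay above that share (37.0 to 54.3%, against 34.8%). The intervals of chromosome 19 lay above the share of all genes in all 5 comparisons. The intervals of chromosomes 19 and 9, picked here as extremes, did not overlap at 1 dpi (49.7 to 74.8% and 30.7 to 47.7%) and 7 dpi (49.7 to 74.8% and 32.1 to 49.2%). They overlapped at 3 dpi, 5 dpi and in primary neurons.

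Chromosome 9 also had the highest hyper share at 1 dpi among chromosomes with at least 25 members. There 34 of its 136 members were listed, 25.0% (17.98 to 33.1), against 11.7% of all genes, and they made up 34 of the 110 listed members. The same chromosome had 13 at 3 dpi (9.56%, against 10.9% of all genes) and 15 at 5 dpi (11.0%, against 16.9%). It had 4 at 7 dpi (2.94%, against 7.44%) and 4 in primary neurons (2.94%, against 7.43%). Its larger group of 99 genes, between 37.7 and 40.2 Mb, had 24 members with a hyper region at 1 dpi, and its group of 37 genes, between 18.8 and 20.3 Mb, had 10. On chromosome 15, 6 of 9 members were listed at 5 dpi (66.7%, 29.9 to 92.5, with 16.9% of all genes listed), against 1 or 2 in each other comparison. On chromosome 14 no member of 39 was listed at 7 dpi (0 of 39, up to 9.03%, which includes the 7.44% of all genes), against 9 at 5 dpi (23.1%, 11.1 to 39.3, which includes their 16.9%). The differences between chromosomes were not tested.

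**Figure D3:**
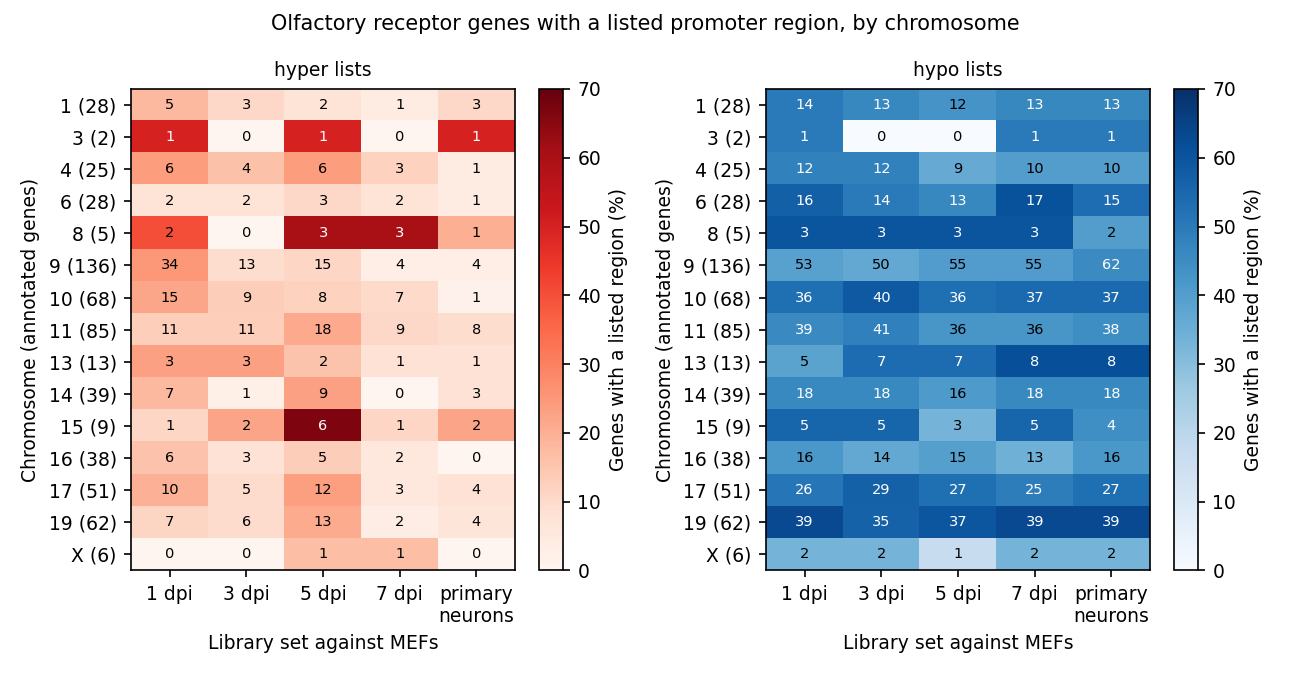
Percentage of annotated members with a listed promoter region (colour, 0 to 70%) by chromosome (y axis, with the number of annotated members) and library set against MEFs (x axis), for the hyper lists (left) and the hypo lists (right); the number in each cell is the count of genes. In the left panel 34 of 136 genes are listed on chromosome 9 at 1 dpi and 4 at 7 dpi, and in the right panel chromosome 19 has 35 to 39 of 62 genes in every column.

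The member with the most regions on a chromosome, counted over the 10 lists, was Olfr866 on chromosome 9 with 18. Olfr117 on chromosome 17 and Olfr1474 on chromosome 19 had 16 each, and Olfr371 on chromosome 8 had 15. Olfr812 on chromosome 10 and Olfr315 on chromosome 11 had 14, Olfr282 on chromosome 15 had 13 and Olfr448 on chromosome 6 had 12. On chromosomes 4, 13 and 16 the leading members were Olfr157, Olfr1361 and Olfr170 with 11 each. Olfr747 led on chromosome 14 with 10, Olfr1323 on chromosome X with 9 and Olfr1402 on chromosome 3 with 7. On chromosome 1 Olfr1410, Olfr1416, Olfr218 and Olfr430 had 10 each.

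Member regions were spread over the whole 2000 bp on either side of the TSS. Between 17.4% and 30.0% of hyper regions and between 21.1% and 24.8% of hypo regions were centred within 500 bp of the TSS, against 17.4% to 19.0% and 20.2% to 20.7% of all listed regions. The highest hyper value, 30.0%, is that of primary neurons, which had the fewest regions. Regions centred before the TSS made up 50.7% to 53.4% of member hypo regions and 45.0% to 59.8% of member hyper regions. The median length of a member gene was 945 bp, against 15002 bp for all genes.

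**Figure D4:**
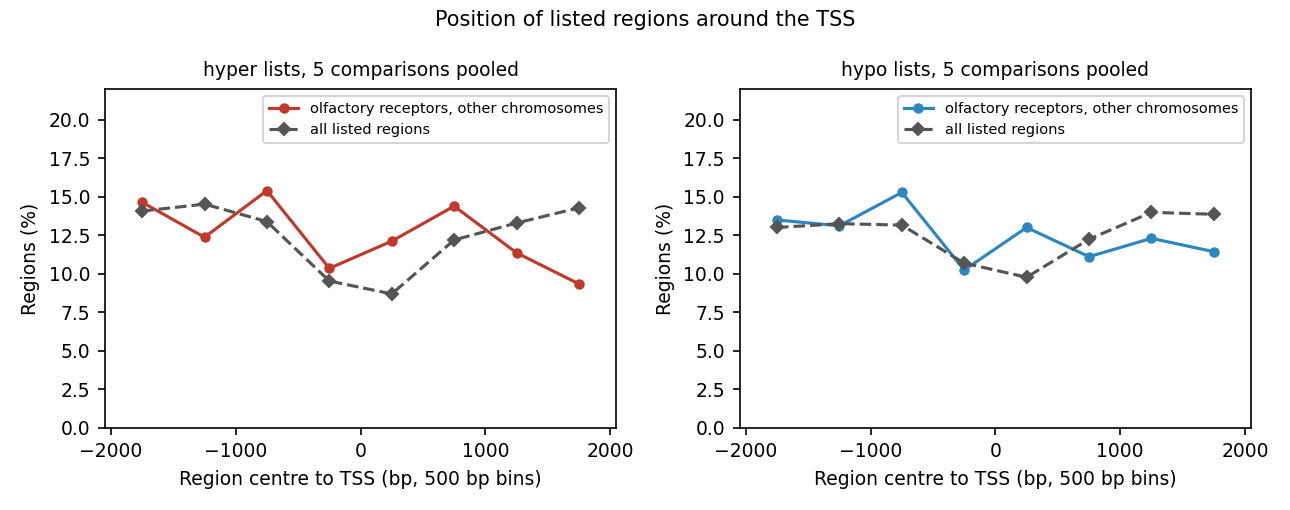
Percentage of listed regions (y axis) by the distance of the region's centre from the TSS (x axis, 500 bp bins, points at bin centres), with the 5 comparisons pooled, for hyper lists (left) and hypo lists (right); solid lines are olfactory receptors off chromosomes 2 and 7 and dashed lines are all listed regions. The solid lines run between 9.34% and 15.4% and the dashed lines between 8.70% and 14.5%, so regions are spread over the whole window.

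The peak lists, 1 per library, gave a different picture of the libraries. A peak was assigned to 4 of 595 members at 1 dpi (0.672%, against 0.805% of all genes), to 5 at 3 dpi (0.840%, against 3.86%), to 4 at 5 dpi (0.672%, against 3.41%), to 1 at 7 dpi (0.168%, against 4.71%) and to 1 in primary neurons (0.168%, against 1.62%). In MEFs it was 477 of 595 (80.2%, 76.7 to 83.3, against 75.6% of all genes). The exact 95% intervals of the member shares lay below the share of all genes at 3 dpi (0.273 to 1.95%), 5 dpi (0.183 to 1.71%), 7 dpi (0.00426 to 0.933%) and in primary neurons (0.00426 to 0.933%), and included it at 1 dpi (0.183 to 1.71%). This held for peaks at any distance. Within 10 kb of the TSS a peak was found for 2 members at 1 dpi (0.336%, against 0.114% of all genes), 1 at 3 dpi (0.168%, against 0.641%), 2 at 5 dpi (0.336%, against 0.645%), 0 at 7 dpi (against 0.904%) and 1 in primary neurons (0.168%, against 0.297%), and for 420 in MEFs (70.6%, against 58.9%). At that distance the member intervals included the share of all genes at 1 dpi (0.0407 to 1.21%), 3 dpi (0.00426 to 0.933%), 5 dpi (0.0407 to 1.21%) and in primary neurons (0.00426 to 0.933%), and lay below it at 7 dpi (0 to 0.618%). The MEF library stands apart in the whole series, since 262, 1238, 1100 and 1579 peaks were called at 1, 3, 5 and 7 dpi and 549 for primary neurons, against 176853 in MEFs. The inputs are labelled as a MEF input and a mixed input. Which of them each peak list used is not given, so these numbers need not be like for like. Every comparison in the promoter lists rests on this library, and none can be made without it.

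The 1425 MEF peaks of members were about as enriched as MEF peaks in general. Their median fold enrichment, the authors' value, was 4.56, against 4.54 over all MEF peaks. Of the 1425, 9 reached 10-fold, against 1808 of all 176853 MEF peaks. The highest were assigned to Olfr1386 (chr11:49479261-49480044, 16.3-fold, 128 tags at the summit), Olfr406 (14.5-fold, 117 tags) and Olfr47 (13.6-fold, 107 tags), all 3 between genes. At promoters the highest were those of Olfr430 (chr1:174069562-174070041, 8.95-fold, 70 tags), Olfr179 (8.59-fold, 69 tags) and Olfr1472 (7.94-fold, 62 tags). The 70 tags of Olfr430 equal the 70 MEF reads of its hypo region at 1 dpi. Of the member peaks in MEFs, 10.4% (8.85 to 12.1) were annotated to a promoter, against 3.24% of all MEF peaks, and 1.12% to a gene body, against 24.4%. The median distance from summit to TSS was 9.30 kb for members, against 62.2 kb for all MEF peaks. The members are short, closely spaced genes, and the part of gene length and spacing in these shares was not tested.

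Member clusters held MEF peaks at close to the density of their chromosomes. The 15 groups of at least 10 genes held 1386 MEF peaks, 73.5 per Mb, with 55.3 to 89.7 per Mb in single groups, against 68.8 per Mb over the chromosomes that hold members. In the other libraries these groups held 4, 5, 2 and 2 peaks at 1, 3, 5 and 7 dpi, with 2 in primary neurons, whichever gene they were assigned to. That is 0.212, 0.265, 0.106 and 0.106 per Mb at 1, 3, 5 and 7 dpi, with 0.106 per Mb in primary neurons. The chromosomes as a whole had 0.0949, 0.458, 0.416 and 0.590 per Mb at 1, 3, 5 and 7 dpi, with 0.205 per Mb in primary neurons. The exact 95% Poisson intervals of the groups lay below the density of the chromosomes at 5 dpi (0.0129 to 0.383 per Mb) and 7 dpi (0.0129 to 0.383 per Mb). They included it at 1 dpi (0.0578 to 0.543), at 3 dpi (0.0861 to 0.619) and in primary neurons (0.0129 to 0.383).

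All 21 member peaks outside MEFs were between genes. Those assigned to Olfr161 on chromosome 16 made up 4 of 7 at 1 dpi, 3 of 7 at 3 dpi, 2 of 5 at 5 dpi and the only one at 7 dpi. They lie between 3.11 and 3.35 Mb of chromosome 16, 241 to 479 kb from the TSS of Olfr161, with 86 to 415 tags at the summit but a fold enrichment of only 2.19 to 3.38. Each overlaps a MEF peak. At chr16:3349698-3350562 there were 342 tags at 1 dpi, and at chr16:3349699-3350554 there were 415 at 3 dpi, against 573 tags at the MEF peak there. Among the 1425 MEF peaks of members, 5 had at least 86 tags and a fold enrichment of at most 3.38, and 4 of these 5 were also assigned to Olfr161. Assignment to Olfr161 is by nearest gene and at this distance says little about that gene.

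The other 11 peaks outside MEFs had 25 to 43 tags and a fold enrichment of 4.07 to 7.32. At 1 dpi they were assigned to Olfr875 (5.13-fold), Olfr936 (4.60-fold) and Olfr1537 (5.31-fold), all on chromosome 9 and inside its group of 99 genes. At 3 dpi they were assigned to Olfr464 (5.90-fold), Olfr1462 (5.42-fold), Olfr266 (7.02-fold) and Olfr77 (4.78-fold), and at 5 dpi to Olfr464 (5.89-fold), Olfr1370 (4.98-fold) and Olfr102 (4.07-fold). The peak of Olfr464 on chromosome 11 was called at 3 dpi (chr11:87923580-87924059, 36 tags) and again at 5 dpi (chr11:87923562-87924059, 38 tags), 8.81 and 8.76 kb before the TSS, and no MEF peak overlapped it. In primary neurons the only peak was that of Olfr113 (chr17:37580295-37580774, 7.32-fold, 40 tags, 5.28 kb before the TSS). The nearest to a TSS was that of Olfr1537, 2.18 kb before it. Of these 11 peaks, that of Olfr266 was the only one on a MEF peak.

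**Figure D5:**
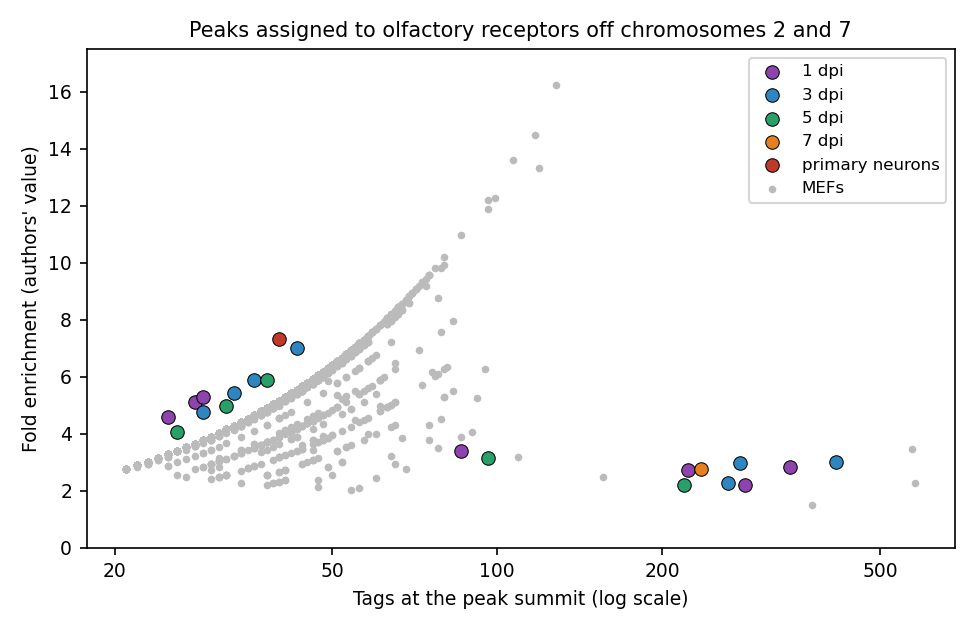
Fold enrichment as the authors gave it (y axis, linear) against tags at the peak summit (x axis, log scale) for the 1446 peaks assigned to members; coloured points are the 21 peaks at 1, 3, 5 and 7 dpi and in primary neurons, and grey points are the 1425 MEF peaks. The coloured points fall into a set with 25 to 43 tags and 4.07- to 7.32-fold enrichment and the set near Olfr161 with 86 to 415 tags and 2.19- to 3.38-fold.

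Genes that act with the receptors were counted in the same lists. Of 17 genes of olfactory signal transduction, 1, 7, 5 and 2 had a hyper region at 1, 3, 5 and 7 dpi, with 3 in primary neurons, and 7, 5, 4 and 4 had a hypo region at 1, 3, 5 and 7 dpi, with 6 in primary neurons. Pde1c, a phosphodiesterase that breaks down cyclic nucleotides, had 16 reads at 5 dpi, against 0 in MEFs, at least 9.33-fold higher, and is named after its values were seen. Pde1c also had a hypo region at 1 dpi and in primary neurons, with 0 reads against 17 in MEFs at both. Gnb1, a G protein beta subunit, had 1 read at 1 dpi, against 38 in MEFs, and Omp, the olfactory marker protein, had 1 at 1 dpi, against 31. Gnb1 also had a hyper region at 5 dpi (9 reads, against 0 in MEFs). Omp had hyper regions at 3 dpi (11 and 10 reads) and at 5 dpi (11 reads), against 0 in MEFs. Cnga4, a subunit of the cyclic nucleotide-gated channel, had 1 read at 7 dpi, against 28 in MEFs, in a hypo region that overlapped a hyper region of 10 reads, against 0 in MEFs, in the same comparison. It also had hyper regions at 3 dpi (12 reads, against 0 in MEFs) and in primary neurons (11, against 0). Slc24a4, the exchanger that removes calcium after the response, had 1 at 3 dpi, against 26, and 11 in a hyper region elsewhere at 3 dpi, against 0.

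Of 7 genes that carry receptors to the cell surface, 0, 1, 1 and 0 had a hyper region at 1, 3, 5 and 7 dpi, with 0 in primary neurons, and 1, 2, 1 and 2 had a hypo region at 1, 3, 5 and 7 dpi, with 2 in primary neurons. Rtp3, a receptor transporter protein, had 9 reads at 3 dpi in a hyper region, against 0 in MEFs, and 0 reads in a hypo region, against 16. Of 19 factors linked to receptor gene choice, 5, 2, 3 and 2 had a hyper region at 1, 3, 5 and 7 dpi, with 2 in primary neurons, and 9, 7, 10 and 7 had a hypo region at 1, 3, 5 and 7 dpi, with 9 in primary neurons. At 3 dpi Kdm1a, a histone demethylase, had 1 read, against 39 in MEFs. Cbx5, a heterochromatin protein, had 1 at 3 dpi, against 38 in MEFs, and Ehmt1, a histone methyltransferase, had 1, against 36. Cbx5 also had a hyper region elsewhere at 5 dpi, with 18 reads, against 0 in MEFs. Ehmt1 also had a hyper region of 9 reads at 3 dpi, against 0 in MEFs, that overlapped the hypo one. Lhx2, a homeodomain factor needed for receptor expression, had 1 read at 3 dpi, against 29 in MEFs. In these lists, as among the receptors, hypo regions were the more frequent kind, apart from transduction genes at 3 and 5 dpi and trafficking genes at 5 dpi. All genes had a hypo share of 34.1% to 36.8% and a hyper share of 7.43% to 16.9%.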

How the data were processed

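hMeDIP-seq of 5-hydroxymethylcytosine gave 6 libraries, 1 per group, and there were 2 inputs without a file here. CASAVA and Bowtie2 2.1.0 were used with mm10, per the submitters' processing notes; the peak and differential callers, the treatment of multiply mapped reads and the input of each library are not given in the sources used here. For each library the authors deposited a peak list, and for each of 5 comparisons with MEFs a hyper and a hypo promoter list. Columns were tied to libraries by the code in their headers; the labels of 3, 5 and 7 dpi name the primary neuron code for the hyper list, and the headers were followed.

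The signal that the authors deposited for promoter regions, under the name count, was whole reads times 1 factor per library and comparison: division by it gave whole numbers within 0.1 for 100% of values. The stretch over which these reads were counted is not given. The signal at peak summits is a whole tag number, per the file headers. Fold enrichment in the peak lists is the authors' own ratio, and the log2 fold change of a region is theirs too and was not used. The p-value and q-value columns that the authors deposited set 1 library against 1 library; among member regions of the authors' deposited table these reached at most 0.00176 (p-value) and 0.0174 (q-value). In the peak lists the deposited q-value column was read as −log10 of q.

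All further values were made with pandas 2.3.3, numpy 2.4.6 and scipy 1.17.1 under python 3.11.15, and figures with matplotlib 3.10.9. Regions or peaks listed for several transcripts were counted once. Intervals are at 95% and cover counting error only: exact Clopper-Pearson for shares, exact Poisson for peak densities, and exact conditional Poisson for ratios of reads. A fold against 0 reads uses a floor of 3 reads per library and takes the other library's reads as exact. Overlap meant at least 1 bp in common. The read recovery and the ratio interval were tested on simulated data. Sequences and annotation are RefSeq's (GRCm38.p6).

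The members and gene lists were chosen with earlier results of these data known. Named regions were the 3 with the largest fold per comparison and direction among those at or above the members' median reads; up to 6 genes per direction listed in all 5 comparisons; all members with a peak outside MEFs; the 3 MEF peaks with the highest fold enrichment, overall and at promoters; up to 4 genes in opposite lists through overlapping regions; the gene with the most regions per chromosome; and up to 4 genes per pathway list by fold. Alternatives were a minimum of 15 reads, a stricter p-value, genes in place of regions, 10-fold enrichment, a distance limit of 10 kb, overlapping regions and a pseudocount of 1 read.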

Additional observations from a re-analysis of the deposited data

Results flagged for a closer look

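Members in a hyper list in one comparison and a hypo list in another, through regions that overlap, were flagged because the lists name them in opposite directions. The MEF library is the same in both comparisons, yet it had 0 reads in each hyper region below and 26 to 47 in the hypo regions. Opposite movement of the libraries at the same stretch is therefore not shown. The 4 with the largest sum of both log2 folds are given, and the difference between the comparisons was not tested. Olfr1423 on chromosome 19 had a sum of 8.38: 38 reads at 3 dpi, against 0 in MEFs, and 1 read in primary neurons, against 27 in MEFs, in regions that share 20 bp. Olfr115 on chromosome 17 had a sum of 7.12, from 9 reads at 1 dpi, against 0 in MEFs, and 1 read in primary neurons, against 47 in MEFs, with 100 bp shared. Olfr263 on chromosome 13 had a sum of 7.03. It had 11 reads at 1 dpi, against 0 in MEFs, and 1 read at 7 dpi, against 35 in MEFs, with 120 bp shared. Olfr921 on chromosome 9 had a sum of 6.98, from 15 reads at 5 dpi, against 0 in MEFs, and 1 read in primary neurons, against 26 in MEFs, with 80 bp shared. No read number is listed for the shared stretch alone.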

How the results depend on the processing

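The share of hyper regions among member regions depended on the read minimum. With a minimum of 15 reads it was 1.08% at 1 dpi, 1.65% at 3 dpi, 3.84% at 5 dpi, 2.13% at 7 dpi and 0% in primary neurons, since hyper regions had a median of 10 to 11 reads. Hypo regions all have at least 15 reads, so this minimum could remove hyper regions only. With the authors' p-value under 1e-10 it was 0% at 1 dpi, 8.33% at 5 dpi, 7.69% at 7 dpi and 0% in primary neurons, and 12.5% at 3 dpi, near its main value. These shares rest on only 15, 8, 12 and 13 regions at 1, 3, 5 and 7 dpi, with 15 in primary neurons. So few regions cannot show whether a share held or moved. Counted by gene it was 27.8%, 17.8%, 28.1% and 12.8% at 1, 3, 5 and 7 dpi and, for primary neurons, 10.6%. With 10-fold enrichment required, 0 members had a peak in each of the 5 libraries other than MEFs and 9 in MEFs, without matching counts over all genes here. Within 10 kb of the TSS, 2, 1, 2 and 0 members had a peak at 1, 3, 5 and 7 dpi, with 1 in primary neurons, against 426 in MEFs, counted over every member symbol in the peak lists (483 at any distance) and not over the 595 annotated genes alone. Members hypo in all 5 comparisons numbered 195 when the regions had to overlap and 206 with at least 15 reads. No member hypo region has fewer than 15 MEF reads, so the minimum of 15 could not change the 206. Hyper ones numbered 0 under both settings, and neither setting could raise that count. A pseudocount of 1 read in place of the floor kept the direction of all 60 named values and moved 53 of them by over 1.5 times, 47 to lower and 6 to higher folds. No paired analysis was possible because each group has 1 library and no result comes from a test, and for the same reason no replicate could be left out. At 9 to 11 reads a hyper region is near the lowest read number listed, so smaller differences were not detectable at this depth.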

Other observations

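MEF peaks per member gene ranged from 1 to 34, with a median of 2 over 483 genes. The genes with the most were Olfr161 (34 peaks), Olfr1507 on chromosome 14 (26), Olfr1324 on chromosome X (25), Olfr1505 on chromosome 19 (24) and Olfr164 on chromosome 16 (21), named after their values were seen. Their peaks reach far from the genes: up to 552 kb from the TSS for Olfr161, 584 kb for Olfr1507 and 255 kb for Olfr1505. Among chromosomes with at least 25 members, the share of annotated members with a MEF peak ran from 71.4% on chromosome 1 to 92.9% on chromosome 6. It was 86.3% on chromosome 17 and 75.0% on chromosome 9, against 75.6% of all genes. On chromosomes 3 and X, with 2 and 6 members, it was 100%. The differences between chromosomes were not tested.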
